A study of Mus musculus with 12 samples.

Results

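Mouse microglia, macrophages that reside in the brain, were cultured with the secreted products of T helper cells, and the expression of 10 genes of nucleotide and adenosine sensing was followed over 12 arrays. The genes encode the G protein coupled nucleotide receptors P2ry6, P2ry12, P2ry13 and P2ry14, the ATP gated ion channels P2rx4 and P2rx7, the adenosine receptors Adora2a, Adora2b and Adora3, and Entpd1 (CD39), an enzyme of the cell surface that degrades ATP and ADP. They were chosen by name, with earlier results of these data known. Every probe whose transcript matched one of them was taken, which gave 13 probes for the 10 genes among 39429 probes on the array. P2rx7 had 3 probes, Adora2b had 2 and the other 8 genes had 1 each. All 10 genes passed the filter on dim probes (4 or more of the 12 arrays had to be well above background) and were among the 19801 genes tested.

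The cells were cultured microglia shaken off mixed glial cultures of newborn C57BL/6 mice, for which the sources name no transgene or deletion. Cells in 4 arrays had been given T cell medium alone (untreated), cells in 4 had been given the supernatant of restimulated Th1 cells, and cells in 4 that of Th17 cells. The methods give a treatment of 16 h for astrocyte cultures and no separate time for microglia. The supernatants are mixtures, so a single secreted factor was not compared. The numbers 12, 13, 14 and 16 in the titles mark 4 independent experiments, each with 1 array per group. Th1 14 thus stands for the Th1 array of experiment 14.

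Cells release ATP, ADP, UTP, UDP and sugar nucleotides when they are active, stressed or damaged. P2X receptors are cation channels opened by ATP, while P2Y receptors respond to different nucleotides through G proteins. Enzymes of the cell surface strip the phosphates off in steps until adenosine remains, which is sensed by its own receptors, taken up by transporters or broken down to inosine. In microglia of the healthy brain this system steers the movement of processes towards injury, phagocytosis and the release of cytokines, and P2RY12 is widely used as a marker of resting microglia.

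All 16 of the defining markers of microglia and macrophages that could be matched to a probe were well above background on each of the 12 arrays. Itgam (CD11b) differed by 0.03 ± 0.18 (log2, SE) between Th1 and untreated cells, whereas Cx3cr1, the fractalkine receptor, fell by 6.31 ± 0.70 with Th1 supernatant (limma, Benjamini-Hochberg adjusted p = 2.71e-05). Of the 16 markers 2 rose, 6 fell and 8 were not called (adjusted p under 0.01 and a change over 2-fold). Over all genes tested 7.49% were called higher and 7.88% lower, the shares to read beside each marker count here. The summed signal of 6 T cell markers, of which 1 rose and 2 fell, was 9836 to 11223 in untreated and 7495 to 8661 in Th1 cells, and Cd3d, Cd3g and Cd8a did not pass the filter. The summed signal of 5 endothelial markers was 14633 to 18966 in untreated and 20027 to 28175 in Th1 cells, where Vwf alone was called. Pecam1, Flt1 and Kdr were well above background on every array, and Cldn5 and Tek did not pass. Of 7 perivascular macrophage markers 2 rose and 4 fell, and their summed signal was 178376 to 253469 in untreated and 59249.5 to 111727 in Th1 cells. The summed signals of 7 astrocyte markers, of which 1 fell, were 4946 to 12016 in untreated and 4185 to 5780 in Th1 cells. The Th1 sum was below the untreated sum in each of the 4 experiments, but the markers did not move together. Log2 changes were -2.24 for Fabp7, the marker called, -1.72 for Aldoc and -0.39 for S100b. They were 1.02 for Gfap, 0.98 for Aldh1l1, 0.78 for Slc1a3 and 0.15 for Aqp4, with a median of 0.15. The mean log2 signal of the markers rose from 7.17 to 7.22 in experiment 13 and fell in the other experiments. Of 9 oligodendrocyte lineage markers 2 rose and 2 fell, of 3 monocyte and granulocyte markers 1 fell, and of 4 fibroblast and mural markers none was called. The part of these other cells in the results was not tested.

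The stretches before the start sites of 5 genes that rose are given first, because they come from a receptor cluster on chromosome 3 and from the adenosine receptors. Each runs over the 250 bases before an annotated start, from RefSeq (GRCm38.p6), 5′ to 3′ on the strand of the gene. Capitals mark GAGGAA or its reverse TTCCTC, the core recognised by PU.1, a transcription factor that macrophages and microglia depend on. P2ry14 (first of 4 annotated starts, chr3:59153493-59153742, minus strand), P2ry13 (chr3:59210883-59211132, minus strand), P2ry12 (chr3:59262986-59263235, minus strand), Adora3 (chr3:105904171-105904420, plus strand) and Adora2b (chr11:62248734-62248983, plus strand) read as follows.
P2ry14: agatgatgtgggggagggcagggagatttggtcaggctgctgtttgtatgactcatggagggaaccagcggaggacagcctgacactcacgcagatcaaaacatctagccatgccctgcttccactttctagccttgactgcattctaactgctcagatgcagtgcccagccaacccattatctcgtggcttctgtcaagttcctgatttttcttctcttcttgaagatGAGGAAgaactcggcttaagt
P2ry13: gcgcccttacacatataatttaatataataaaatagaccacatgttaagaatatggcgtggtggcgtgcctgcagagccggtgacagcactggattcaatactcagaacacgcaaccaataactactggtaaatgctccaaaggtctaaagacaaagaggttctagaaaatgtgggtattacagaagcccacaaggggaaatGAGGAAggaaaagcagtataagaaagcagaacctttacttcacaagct
P2ry12: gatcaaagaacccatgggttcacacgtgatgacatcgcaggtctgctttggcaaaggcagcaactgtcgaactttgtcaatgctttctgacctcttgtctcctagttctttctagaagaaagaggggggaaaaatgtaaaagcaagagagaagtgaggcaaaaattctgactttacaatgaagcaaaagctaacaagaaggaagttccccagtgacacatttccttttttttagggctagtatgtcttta
Adora3: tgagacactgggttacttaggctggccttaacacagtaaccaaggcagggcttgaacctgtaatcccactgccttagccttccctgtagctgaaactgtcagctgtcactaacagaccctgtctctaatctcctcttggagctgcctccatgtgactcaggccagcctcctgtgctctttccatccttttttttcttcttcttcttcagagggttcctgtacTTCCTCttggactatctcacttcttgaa
Adora2b: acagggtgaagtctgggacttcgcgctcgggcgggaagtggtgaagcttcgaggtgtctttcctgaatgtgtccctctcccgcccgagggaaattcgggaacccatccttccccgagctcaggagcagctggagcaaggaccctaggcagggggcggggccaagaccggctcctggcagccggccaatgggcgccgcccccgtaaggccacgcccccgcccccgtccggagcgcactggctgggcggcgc

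The first letter of the capitals lay 21 bases before the start of P2ry14, 48 before that of P2ry13 and 28 before that of Adora3. The P2ry12 and Adora2b windows held no match. Windows could be matched for 8 of the 10 genes, 13 windows in all, and none for P2ry6 and Adora2a. GAGGAA was found on either strand in 4 of the 8 genes, and in 23.3% of all 32851 windows of this length (25.9% of genes). Each of the 4 windows of P2ry14 held a match, and the 2 in the middle overlap and share theirs. Matches to the interferon-gamma activated site TTCNNNGAA (7.02% of all windows) or to GAAANNGAA, the core of the interferon-stimulated response element (7.13%), were found in none of the 13 windows. These are matches of letters in short windows, and binding was not measured.

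Values are given as normalised signals: the intensity of a probe after quantile normalisation, scaled so that the 75th percentile of an array is 1500, with 15 as the lowest value allowed. Signals of different probes are not compared, since they depend on the probe. Groups were compared on the log2 scale with limma, and a gene was called where the Benjamini-Hochberg adjusted p over all genes tested was under 0.01 and the change was over 2-fold. With Th1 supernatant 6 of the 10 genes were called, all higher than in untreated cells: P2ry14, P2ry13, P2ry12, Adora2b, Adora3 and Entpd1. Over all genes tested 15.4% were called in this comparison, 7.49% higher and 7.88% lower. The median log2 change was 1.70 over the 10 genes and -0.06 over all genes. Because the 10 genes were chosen with earlier results of these data known, their excess over all genes is not an independent result. With Th17 supernatant none of the 10 was called, and 0 of all genes tested. Since whole cultures were measured, a change in the number of cells of a type and a change in RNA per cell cannot be told apart.

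**Figure D1:**
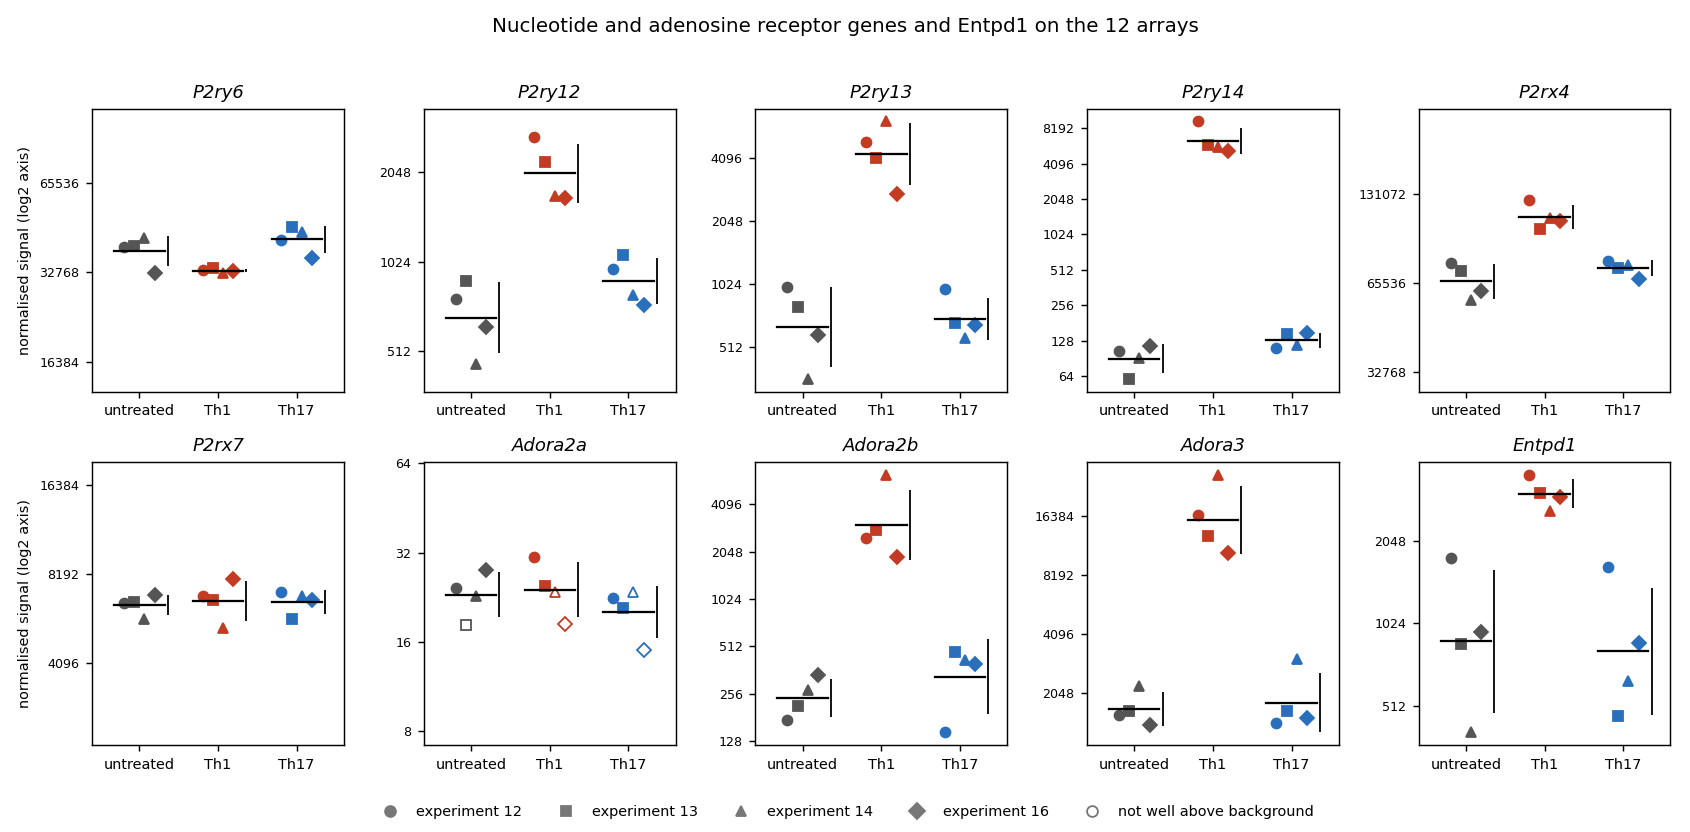
Normalised signal (log2 axis) of the 10 genes on the 12 arrays, by group, with the experiment as the marker shape and open markers for probes not well above background; lines show the geometric mean and bars 1 SD on the log2 scale (n = 4). The 4 Th1 arrays lie above all other arrays for P2ry12, P2ry13, P2ry14, P2rx4, Adora2b, Adora3 and Entpd1.

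Of the P2Y receptors, P2ry14, a receptor of UDP-glucose and other UDP sugars, changed most. Its signal in untreated cells was 103 in experiment 12, 60.3 in 13, 90.3 in 14 and 115 in 16. With Th1 supernatant it was 9352, 5901, 5625 and 5280.4 in the same order, and with Th17 supernatant 111, 145, 118 and 147. The lowest Th1 array was thus far above the highest of the other 8, and the untreated and Th17 arrays overlapped. The increase was 6.15 ± 0.23 on the log2 scale, or 70.9-fold (limma, adjusted p = 5.77e-09), and 5.62 ± 0.23 against Th17 cells (adjusted p = 1.19e-08). With the normexp background correction, which adds 50 to the signal, the increase was 4.65. The pairwise increase within an experiment ran from 5.52 to 6.61.

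P2ry13 encodes a receptor of ADP. Its signal was 986, 798, 359 and 584 in untreated cells of experiments 12, 13, 14 and 16, and 4907, 4113, 6148 and 2753 in Th1 cells. In Th17 cells it was 966, 669, 563 and 649, within the range of the untreated arrays. No Th1 array overlapped with the other groups. The increase was 2.75 ± 0.32 (6.75-fold, limma, adjusted p = 4.15e-05), and experiment 14, with the lowest untreated and the highest Th1 array, gave a difference of 4.10 against 2.24 to 2.37 in the other experiments.

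P2ry12 encodes the ADP receptor through which resting microglia extend processes towards damaged tissue. Signals were 768, 878, 465 and 619 in untreated cells, 2697, 2211, 1701 and 1676 in Th1 cells, and 967, 1078, 794 and 733 in Th17 cells. The Th1 arrays were again all above the others, with the highest signal in experiment 12. P2ry12 rose 3.06-fold with Th1 supernatant (log2 1.61 ± 0.22, limma, adjusted p = 0.000134), and its difference between Th1 and Th17 cells was 1.20 ± 0.22 (adjusted p = 0.00112). Without the 3 arrays of experiment 12 the second difference was 1.11 and was no longer called (adjusted p = 0.0133).

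P2ry6, a receptor of UDP that is tied to phagocytosis in microglia, was the P2Y receptor not called. Signals were 39926, 40269, 42698 and 32625 in untreated cells and 33339.5, 33824, 32641 and 33154 in Th1 cells, so that the groups overlapped through the untreated array of experiment 16. In Th17 cells they were 42210.2, 46446, 44864 and 36521, all above the Th1 arrays. The difference between Th1 and untreated cells was -0.22 ± 0.11 (95% interval -0.46 to 0.02, limma, adjusted p = 0.124), but 0.10 where arrays were scaled to their 75th percentile without quantile normalisation. Against Th17 cells it was -0.35 ± 0.11 (adjusted p = 0.0223), and -0.01 with that scaling. This probe is printed 10 times per array, and the coefficient of variation over its spots was 1.32% to 5.63%, except on Th1 12, where it was 14.8%.

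P2ry14, P2ry13 and P2ry12 lie in a cluster on chromosome 3 that Med12l overlaps. All 3 rose. Igsf10, which follows P2ry12, differed by -0.12 ± 0.41 (limma, adjusted p = 0.833). Med12l and Gpr171, on the other side, did not pass the filter.

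Both P2X channels are encoded side by side on chromosome 5. P2rx4, an ATP gated channel that microglia raise after nerve injury, had signals of 76797, 72043, 57291 and 61734 in untreated cells and of 124925, 99621, 109002 and 105843 in Th1 cells. In Th17 cells they were 77935, 73738, 75683 and 67489. The Th1 arrays lay above all others, while the other groups overlapped. The increase of 0.72 ± 0.12 (1.65-fold, limma, adjusted p = 0.000435) was below the 2-fold threshold, so P2rx4 was not called. Th1 and untreated arrays did not overlap in 7 of the 10 genes, and in 40.7% of all genes tested in either direction.

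P2rx7, the channel that opens at high ATP and starts the release of interleukin-1 beta, was measured by 3 probes. By the brightest its signals were 6534, 6587, 5776 and 6975 in untreated, 6905, 6681, 5387 and 7874 in Th1 and 7102, 5764, 6938 and 6726 in Th17 cells. The groups overlapped throughout, and the difference between Th1 and untreated cells was 0.04 ± 0.13 (95% interval -0.23 to 0.32, limma, adjusted p = 0.802). Ift81 on the other side of P2rx7 differed by 0.06 ± 0.10, and Camkk2 beside P2rx4 by -0.81 ± 0.11 (limma, adjusted p = 0.665 and 0.000148). Anapc5, the next gene on the side of P2rx4, rose by 0.54 ± 0.10, below the 2-fold threshold (adjusted p = 0.00139).

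The other probes of P2rx7 were read separately. Probe A_55_P2183010, matched to another transcript of the gene, read 377, 330.0, 331 and 482 in untreated cells, 535, 494, 552 and 659.9 in Th1 cells and 398, 401, 392 and 499 in Th17 cells. Its Th1 arrays were all above its untreated arrays, with a difference of 0.57 ± 0.15 (limma over all 24286 kept probes, adjusted p = 0.00801). Probe A_51_P506733 differed by -0.09 ± 0.12 (adjusted p = 0.569). The change of A_55_P2183010 exceeded that of the brightest probe by 0.53 on the log2 scale, at the smallest p that 4 against 4 arrays allow (two-sided exact permutation test, p = 0.0286, adjusted p = 0.128 over 9 such tests). The change of A_51_P506733 was below that of the brightest probe by a smaller amount, -0.13, with the same p and adjusted p in the same exact test.

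**Figure D2:**
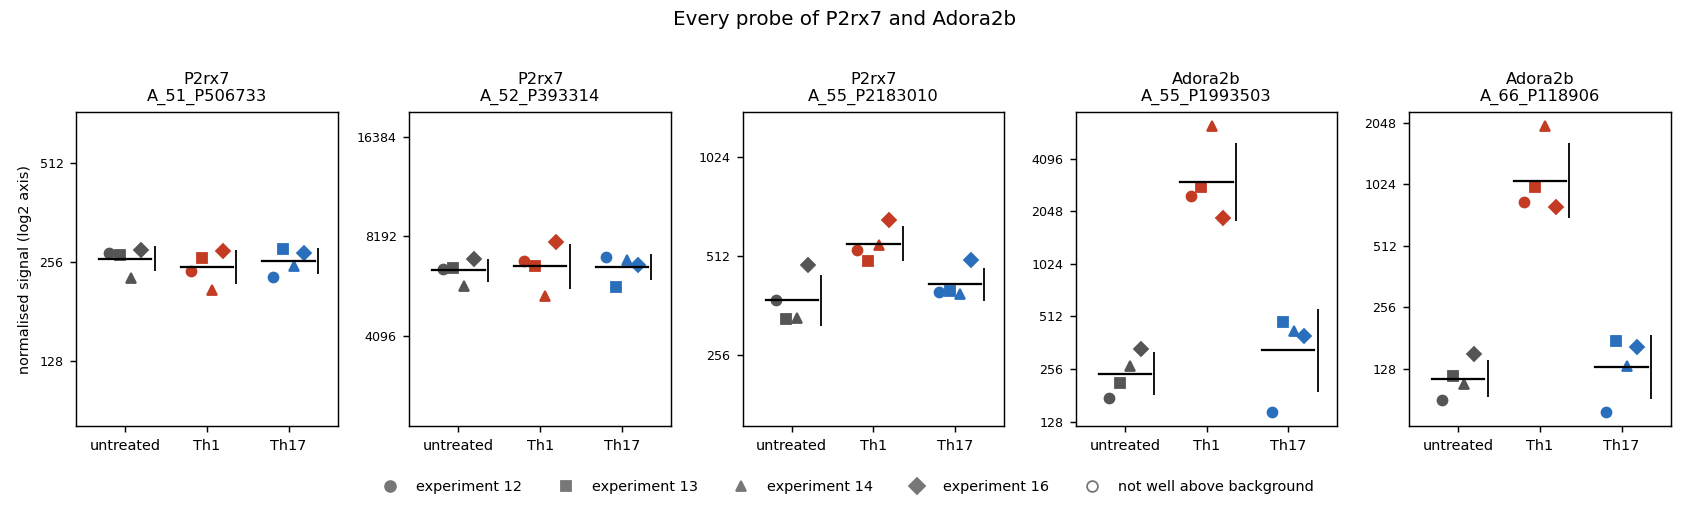
Normalised signal (log2 axis) of the 3 probes of P2rx7 and the 2 probes of Adora2b on the 12 arrays, drawn as in the plot of the 10 genes. Only A_55_P2183010 of the P2rx7 probes has all 4 Th1 arrays above the untreated arrays, and both Adora2b probes have.

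Adenosine acts on receptors that lower or raise cyclic AMP. Adora3, coupled to inhibitory G proteins, had signals of 1570.3, 1660.5, 2223 and 1404 in untreated, 16576, 12855, 26435 and 10551 in Th1 and 1439, 1647, 3033 and 1518 in Th17 cells. The Th1 arrays were separate from the others, and experiment 14 was highest in all 3 groups. The increase was 3.21 ± 0.30 (9.24-fold, limma, adjusted p = 8.37e-06) over untreated and 8.59-fold over Th17 cells (adjusted p = 1.30e-05). Tmigd3, which overlaps Adora3 on chromosome 3, rose by 1.39 ± 0.22 and the next gene, I830077J02Rik, by 5.03 ± 0.40 (limma, adjusted p = 0.000386 and 2.61e-06). Rap1a on the other side differed by 0.23 ± 0.25 (adjusted p = 0.499).

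Adora2b, the low affinity receptor coupled to the rise of cyclic AMP, was measured by 2 probes. By the brighter one its signal was 174, 212, 268 and 335 in untreated, 2500.3, 2829, 6299.8 and 1880.2 in Th1 and 145, 474, 420.3 and 397 in Th17 cells. The lowest Th1 array was above every other array, and Th17 12 was below all untreated arrays while the other 3 Th17 arrays were above them. The increase with Th1 supernatant was 3.66 ± 0.43 by this probe (12.6-fold, limma, adjusted p = 4.14e-05) and 3.22 ± 0.32 by the other (adjusted p = 1.16e-05 over all kept probes). Their changes differed by 0.44 on the log2 scale (two-sided exact permutation test, p = 0.0571, adjusted p = 0.128).

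Adora2a, the high affinity receptor coupled to the rise of cyclic AMP, was near background. Its signals were 18.3 to 28.0 in untreated, 18.5 to 31.0 in Th1 and 15 to 23.5 in Th17 cells, and it was well above background on 3, 2 and 2 of 4 arrays. The groups overlapped, and the difference between Th1 and untreated cells was 0.06 ± 0.19 (95% interval -0.37 to 0.48, limma, adjusted p = 0.834). A fall was not detectable at this signal.

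Entpd1, which removes phosphates from extracellular ATP and ADP, had signals of 1774, 862, 409 and 952 in untreated, 3552, 3047, 2636 and 2962 in Th1 and 1642, 471, 632 and 869 in Th17 cells. The Th1 arrays were close to each other and above all others, while untreated and Th17 arrays were widely spread and overlapped. Entpd1 rose by 1.79 ± 0.43 (3.45-fold, limma, adjusted p = 0.0058) over untreated and by 1.91 ± 0.43 over Th17 cells (adjusted p = 0.00411). The first call was lost without any single Th1 array or without untreated 13, 14 or 16 (log2 1.42 to 1.85, adjusted p = 0.0118 to 0.0183). The second was lost without Th1 12, Th1 13, Th17 13 or Th17 14 (log2 1.65 to 1.91, adjusted p = 0.0111 to 0.0137).

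Arrays were hybridised on 3 slides, and each slide held all 3 groups. The difference between Th1 and untreated arrays within a slide was 5.52 to 6.89 for P2ry14, 2.24 to 3.81 for P2ry13 and 1.44 to 2.06 for P2ry12. It was 2.49 to 3.98 for Adora2b, 2.91 to 3.36 for Adora3, 1.52 to 2.79 for Entpd1 and 0.75 to 0.86 for P2rx4. The difference had the same sign on each slide for these 7 genes and for P2rx7 (0.05 to 0.17), but not for P2ry6 (-0.36 to 0.02) and Adora2a (-0.60 to 0.55). With the slide as a block the same 6 genes were called.

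**Figure D3:**
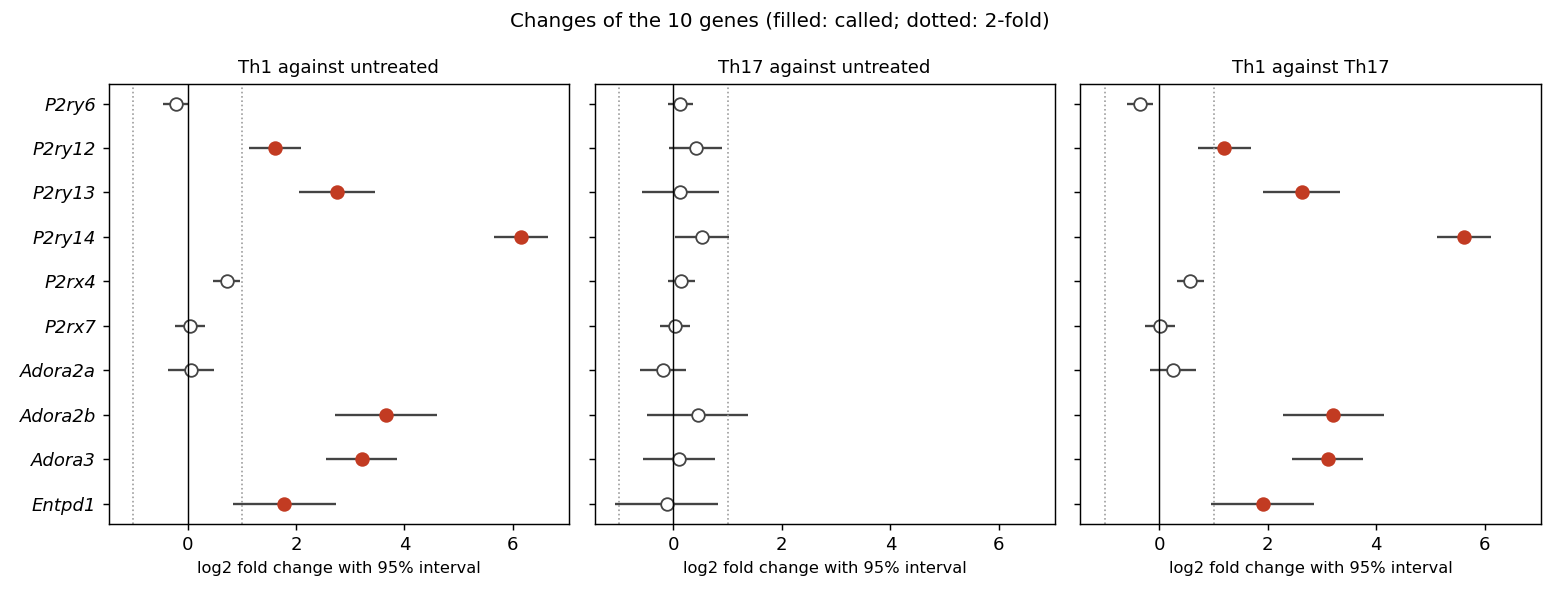
Log2 fold change of the 10 genes in the 3 comparisons, with 95% intervals from the limma fit and filled points for called genes; dotted lines mark 2-fold. P2ry14 changes most with Th1 supernatant (6.15), and no gene is called with Th17 supernatant.

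The errors given here come from a fit that leaves out the pairing by experiment. Differences between Th17 and untreated cells were not called for any of the 10 genes. They ran from -0.20 ± 0.19 for Adora2a to 0.52 ± 0.23 for P2ry14 (95% interval 0.03 to 1.02), the only one of the 10 with an unadjusted p below 0.05 (0.0401, limma, adjusted p = 1), beside 325 of all genes tested (1.64%). In each of the 4 experiments the Th17 array was above its untreated array for P2ry6, P2ry12, P2ry14 and P2rx4, with mean differences of 0.13 ± 0.11, 0.41 ± 0.22, 0.52 ± 0.23 and 0.15 ± 0.12. For no member did the Th17 arrays lie apart from the untreated ones, as they did for 0.98% of all genes tested. The widest interval was that of Entpd1, -1.07 to 0.82.

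The comparison of Th1 with Th17 cells shares the Th1 arrays with the comparison above. The same 6 genes were called, all higher with Th1 supernatant, where 14.8% of all genes tested were called, 6.89% higher and 7.91% lower. The differences were 3.21 ± 0.43 for Adora2b and 2.62 ± 0.32 for P2ry13 (limma, adjusted p = 0.000121 and 6.76e-05). P2rx4 differed by 0.57 ± 0.12 (adjusted p = 0.00211), P2rx7 by 0.01 ± 0.13 and Adora2a by 0.25 ± 0.19. Groups did not overlap in 8 of the 10 genes, P2ry6 among them with lower Th1 values, and in 41.1% of all genes tested.

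The receptors did not rank the Th1 arrays alike. P2ry13, Adora2b and Adora3 had their highest Th1 signal in experiment 14, and P2ry12, P2ry14, P2rx4 and Entpd1 in experiment 12. Experiment 16 gave the lowest Th1 signal of P2ry12, P2ry13, P2ry14, Adora2b and Adora3. Over the 12 arrays the genes with the most similar log2 values were Tafa2 and Tnik for P2ry14 (Pearson r = 0.9948 and 0.9945), Cybc1 and Il13ra1 for Adora3 (0.992 and 0.9919) and Mbip and BC147527 for P2ry13 (0.9851 and 0.9845). For Adora2b they were Med21 and Higd1a (0.9836 and 0.9833), for P2ry12 Akap17b and Oxct1 (0.984 and 0.9836), and for P2rx4 Oxct1 and Arhgef3 (0.9813 and 0.9747). The 12 points share the 3 groups, so any gene that separates Th1 from the other arrays scores high, and 665 genes had r over 0.95 with P2ry14. For Entpd1 Elavl4 and Cldn9 were closest (0.9661 and 0.9621) and for P2ry6 Spats2l and Hfe (0.9727 and 0.9574). No gene exceeded 0.95 for P2rx7 (Gm13304 and Zdhhc1, 0.8707 and 0.8671) and Adora2a (Entpd2 and Pi4kb, 0.8118 and 0.7994).

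Of 11 further genes named as P2X, P2Y or adenosine receptors 7 passed the filter. With Th1 supernatant 1 was called higher and 1 lower, beside 7.49% and 7.88% of all genes tested. P2rx5, an ATP gated channel, was well above background on all Th1 arrays (signals 49.2 to 76.2), on 1 of 4 untreated arrays (15 to 28.5) and on no Th17 array. It passed the filter through the Th1 arrays and most untreated arrays were at the lowest value allowed, so the size of its change is not given and its call is no support. P2rx3, an ATP gated channel known from sensory neurons, had signals of 495 to 1146 in untreated, 146 to 255 in Th1 and 493 to 814 in Th17 cells and fell by 2.20 ± 0.27 (adjusted p = 5.57e-05). The median log2 change over the 7 genes, P2rx5 included, was -0.72. Of these, P2ry1 was well above background on 1 of 4 Th1 arrays, and P2ry10b was listed by its name alone. P2ry4, P2ry10, P2rx6 and Adora1 did not pass the filter.

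Of 17 genes linked to the turnover of nucleotides and adenosine, not all of which act outside the cell, 12 passed the filter. With Th1 supernatant 4 rose and 3 fell, beside 7.49% and 7.88% of all genes tested, with a median log2 change of 0.12. Enpp2 (autotaxin), which is best known for making lysophosphatidic acid, rose from 15, 25.5, 81.1 and 35.5 in untreated to 12740.1, 9829, 21329 and 9517 in Th1 cells, a log2 change of 8.61 ± 0.52 (limma, adjusted p = 2.98e-07). The untreated value of 15 is the lowest value allowed, so the size of this change depends on that floor. Ada, which turns adenosine into inosine, had signals of 1968, 1643, 1243 and 1903 in untreated, 7085, 5732, 4994 and 5037 in Th1 and 2169.5, 2948, 1943 and 2186 in Th17 cells. All Th1 arrays were above the others.

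Ada thus rose by 1.77 ± 0.18 and Pnp, which degrades inosine further, by 2.61 ± 0.23 (limma, adjusted p = 1.60e-05 and 5.78e-06). Pnp2, a near-identical copy of Pnp that its probe may not tell apart, rose by 1.36 ± 0.19. Adk, which turns adenosine back into AMP, fell by 1.36 ± 0.21, with 3112 to 4966 in untreated and 1119 to 2149 in Th1 cells. Enpp1, which splits ATP to AMP and pyrophosphate, fell by 2.17 ± 0.36, and Entpd5, an ER enzyme that splits UDP, by 1.67 ± 0.21 (adjusted p = 0.000498 and 8.29e-05). Nt5e (CD73), the enzyme that makes adenosine from AMP, did not pass the filter, nor did Entpd3, Enpp3, Alpl and Dpp4.

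**Figure D4:**
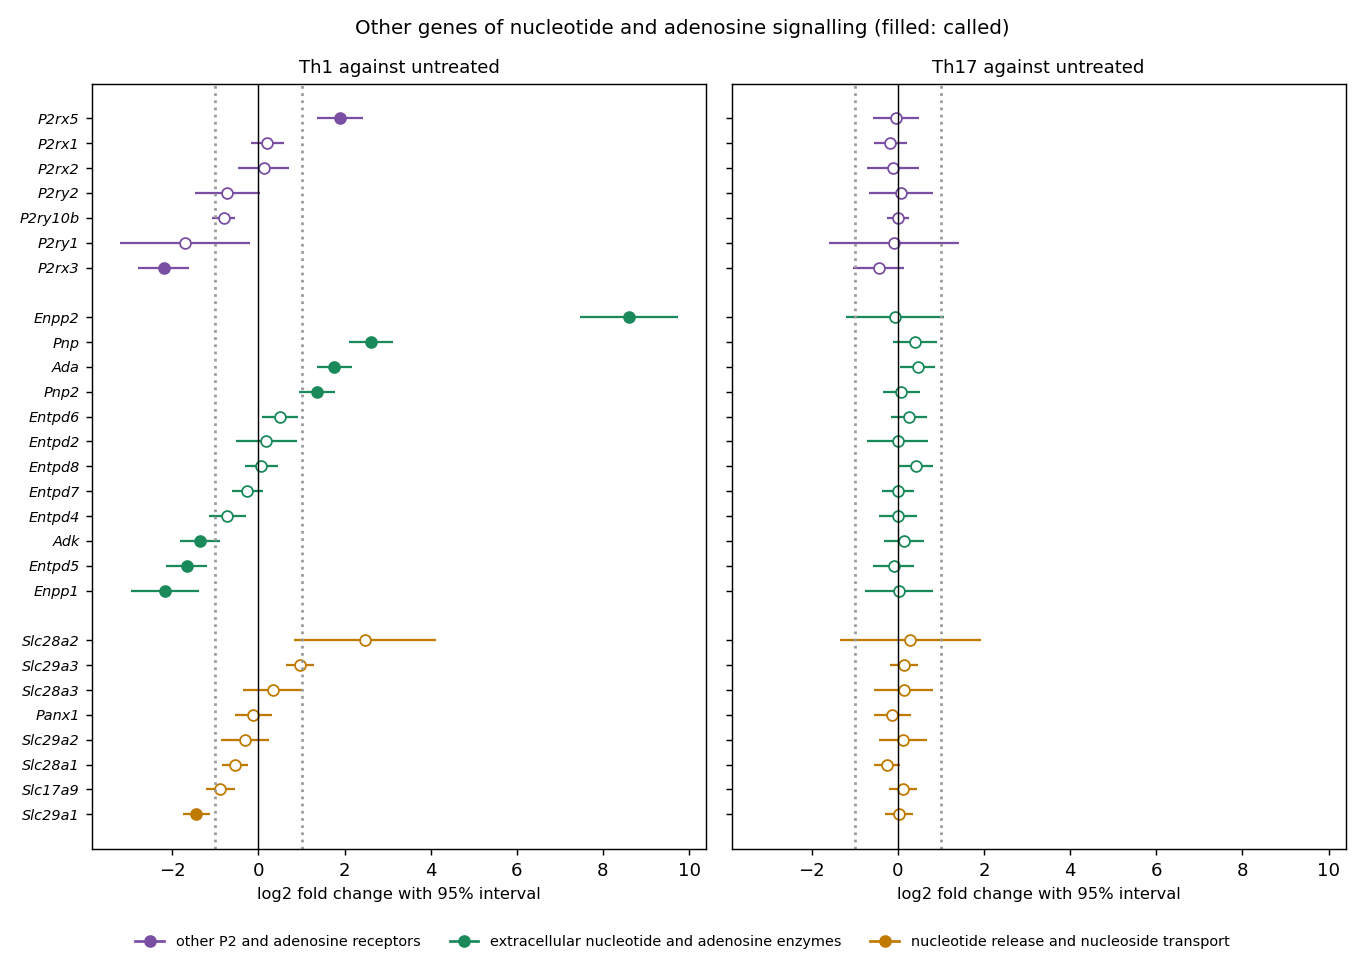
Log2 fold change with 95% interval of the 27 other genes of nucleotide and adenosine signalling that passed the filter, by list, for Th1 and Th17 against untreated cells; filled points are called genes and dotted lines mark 2-fold. With Th1 supernatant 5 genes are called higher and 5 lower, beside 7.49% and 7.88% of all genes tested. P2rx5, called higher, passed the filter through the Th1 arrays, and its call is no support. Enpp2 lies farthest from 0 (8.61), a size that depends on the floor. The enzyme list also holds enzymes that act inside the cell.

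Of 11 genes of nucleotide release and nucleoside transport 8 passed the filter, and 1 was called, beside 15.4% of all genes tested. Slc29a1, the equilibrative transporter that carries adenosine across the plasma membrane, fell by 1.44 ± 0.15 with Th1 supernatant (limma, adjusted p = 1.46e-05). Its signals were 11018, 10365, 7802 and 9812 in untreated, 3481, 3699.9, 2974 and 4196 in Th1 and 10593, 10444, 8077 and 10411 in Th17 cells, and every Th1 array was below every other array. Panx1, a channel that releases ATP, differed by -0.12 ± 0.19 (adjusted p = 0.653). Below the 2-fold threshold, Slc17a9 fell by 0.88 ± 0.15 and Slc28a1 by 0.55 ± 0.14 (limma, adjusted p = 0.000667 and 0.00713). Slc29a3 rose by 0.96 ± 0.15, also below that threshold (adjusted p = 0.000318). None of the genes of the 3 lists was called between Th17 and untreated cells, and 325 of all genes tested had an unadjusted p below 0.05 there.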

How the data were processed

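RNA of the cultures was measured on one-colour (Cy3) Agilent mouse arrays, 4 per slide. Per the file headers, the authors read the images with Feature Extraction 10.7.3.1, and the deposited files give the intensity of each spot with background subtracted and trends corrected, not scaled between arrays. The deposited value table gives log2 values for these arrays, whose scale and centring are not given in the sources used here. Its columns matched log2 signals scaled to the 75th percentile and centred on each probe's median (r at least 0.99999 on each array, column medians -0.23 to 0.18), and it served as an alternative. Columns of the authors' own comparisons were not used.

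Flagged spots were left out and the geometric mean over the remaining spots of a probe was taken (103 to 230 spots left out per array, 9 of P2ry6 in all), and no spot was saturated. Probes well above background made up 54.5% to 65.0% per array, and the number of arrays limits the precision. Values were quantile normalised, scaled so that the 75th percentile was 1500, given a floor of 15 and log2 transformed, after the methods of the study. Transcripts were matched to gene symbols through a RefSeq table (GRCm38.p6, for names alone, since the files name build mm9). Of 39429 probes 27234 had a symbol. A probe was kept if well above background on at least 4 arrays, and the kept probe with the highest mean stood for its gene, which gave 19801 genes, 13952 with a symbol.

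The tests used limma 3.58.1 under R 4.3.3 (lmFit and eBayes, 1 mean per group, all 12 arrays), two-sided, with Benjamini-Hochberg adjustment over all genes. The fit was tested on simulated data. The replicate numbers paired the samples: the study describes independent experiments, and deviations from the group means correlated at 0.24 to 0.63 between arrays of the same number and at -0.42 to 0.12 between others. Alternatives were another scaling, normexp background correction, other floors and filters, every probe on its own, the 8 arrays of 2 groups, slide or replicate number as a block, the deposited table, and leaving out arrays. For normexp the median spot signal replaced the mean, which the files as used here do not hold. The genes and lists were chosen with earlier results of these data known. All 10 genes were named, and of the pathway lists those called in any comparison, Panx1, Slc17a9, Slc28a1, Slc29a3, P2ry10b, genes near background and the genes that did not pass. For each of the 10 the 2 genes of highest correlation were named. Panx1, Slc17a9, Slc28a1, Slc29a3, P2ry10b, the genes near background, the neighbouring genes and the markers named singly were chosen after their values were seen.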

Additional observations from a re-analysis of the deposited data

Results flagged for a closer look

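Of 39 groups of 4 arrays tested over the 13 probes, 2 held an array whose gap to the others was large for the range of its group, where chance alone gives about 1 in 20 groups. The signal of Adora2b by its brighter probe was 145 on Th17 12, beside 397, 420.3 and 474 on the other Th17 arrays. The signal of the P2rx7 probe A_55_P2183010 was 499 on Th17 16, beside 392 to 401. Neither array was in the comparison of Th1 with untreated cells other than through the shared estimate of the spread.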

How the results depend on the processing

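The 10 genes were recomputed under 27 alternatives in 3 comparisons. Of 804 such values 755 kept their direction and side of the threshold, 21 lost the call and 28 changed sign, and each sign change was of a gene not called. The calls lost were those of Entpd1 and of P2ry12 without experiment 12. Entpd1 was also lost between Th1 and untreated cells with a floor of 50 (limma, adjusted p = 0.0111), and without the filter on dim probes in both comparisons of Th1 cells (0.0196 and 0.0145), where more genes are tested. It was lost too without all arrays of experiment 13, 14 or 16. Leaving out arrays gave adjusted p of 0.00202 to 0.0339 between Th1 and untreated and of 0.00149 to 0.0429 between Th1 and Th17 cells. From 5 to 6 of the 10 genes were called.

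With normexp 2004 genes were called between Th1 and untreated cells (1047 higher, 957 lower, 1982 of them among the 3044) and 1922 between Th1 and Th17 cells (968 higher, 954 lower, 1905 of them among the 2931); the cause was not tested. The changes of P2ry14 and Adora2b with Th1 supernatant were then 4.65 and 2.97. The replicate number as a block changed no call of the 10 genes, with 3405 genes called between Th1 and untreated, 3232 between Th1 and Th17 and 0 between Th17 and untreated cells.

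Signs changed as follows. Between Th1 and untreated cells, 75th percentile scaling and the deposited table gave 0.0952 and 0.0966 for P2ry6 and -0.0702 and -0.0688 for Adora2a. Leaving out arrays gave -0.0702 to 0.275 for Adora2a and -0.0376 to 0.145 for P2rx7. Between Th17 and untreated cells Entpd1 was 0.0379 with the slide as a block. Leaving out arrays gave -0.49 to 0.215 for Entpd1, -0.146 to 0.339 for P2ry13, -0.0416 to 0.111 for P2rx7, -0.141 to 0.238 for Adora3 and -0.326 to 0.0376 for Adora2a. For P2rx7 between Th1 and Th17 cells it gave -0.0725 to 0.133. The causes were not tested. With a floor of 50 Adora2a was at the floor on every array and gave no value, and it was not tested where all arrays of a group had to be well above background. Signal over background limits Adora2a, P2rx5, P2rx2, P2ry1, Entpd2, Slc28a2 and Slc28a3, and the untreated and Th17 values of Enpp2. The size of the changes of P2ry14 and Adora2b also depends on the background correction. For the rest 4 arrays per group are the limit.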
